A study of Mus musculus with 54 samples.

Results

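Dppa3, Nanos3, Dnd1, Tdrd5 and Kit are 5 genes that mouse germ cells use soon after the germ line is set apart from the embryo. They were chosen by name, as 5 rows of the 20036 genes in the deposited table, and were followed through all 27 groups of the series. Each group had 2 libraries, 54 in all, of poly(A) RNA. Embryonic stem cells (ESC), epiblast-like cells (EpiLC) and day 2 primordial germ cell-like cells (PGCLC) were sampled from 9 lines of the strain cross C57BL/6 X 129/SvJ. The lines bear the labels Ovol1KO, Ovol2KO, Ovol3KO, TKO, Ovol2a-Tg, Ovol2b-Tg, Ovol2a/2b-Tg, Cdh1-Tg and wild type (WT). The Ovol genes code for DNA-binding zinc finger proteins of the OVO family, and the product of Cdh1 is E-cadherin, the main adhesion protein of epithelial cells. The sources used here give no deleted exon, no clone number, no promoter for the transgenes (Tg), no host genotype of the Tg lines and no spelled-out form of TKO. The design text names knockout of the Ovol family as what the series is about, so the question for these 5 genes is how their level in each line differs from that in WT at the same stage.

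Primordial germ cells arise from the epiblast under BMP signals, and a small set of specifiers, Prdm1, Prdm14 and Tfap2c, turns the germ cell programme on. The 5 genes belong to what follows. DPPA3 (also known as Stella) affects DNA methylation, in part by acting on UHRF1, and it also marks naive ESC and the early embryo. NANOS3 and DND1 are RNA-binding proteins of migrating germ cells, TDRD5 is a Tudor domain protein needed in the male germ line for piRNA production and transposon silencing, and KIT is the receptor for KIT ligand, which keeps germ cells alive as they migrate. KIT also serves blood, mast and pigment cells.

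Values are in TPM, each gene's share of a library's transcripts on a fixed total, which is scaled for gene length and can be compared between genes. Differences are log2 fold changes of TPM plus 1, with standard errors (SE), from limma. A gene was called when its Benjamini-Hochberg (BH) adjusted p over 14416 tested genes was under 0.05 and its absolute log2 fold change was at least 1. All 5 members were among the tested genes. Adding 1 to the TPM makes the fold change of a scarce gene smaller than its ratio. The labels do not state whether libraries of the same group had their own cultures, so p-values measure the spread between libraries, which may be technical.

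The libraries held 2.16 to 26.73 M reads each (median 8.65 M), as recovered from the TPM values. At these depths 1 read of Dppa3 was worth 0.101 to 1.19 TPM, and 1 read of Nanos3 0.113 to 1.33 TPM. The levels of the genes named by the labels did not settle the knockout labels: in PGCLC, Ovol1 had 0.95 and 1.35 TPM in the line labelled Ovol1KO against 1.02 and 0.325 in WT, Ovol2 had 4.74 and 6.68 in the line labelled Ovol2KO against 11.3 and 6.98 in WT, and Ovol3 had 9.84 and 7.25 in the line labelled Ovol3KO against 9.39 and 9.66 in WT. In EpiLC, Ovol2 had 33.7 and 34.6 TPM in the line labelled Ovol2KO against 9.51 and 12.7 TPM in WT, and in ESC 15.3 and 14.1 TPM against 10.6 and 4.98 TPM. Ovol2 in TKO PGCLC was lower than in WT, at 1.52 and 0.835 TPM, but Ovol2 in TKO EpiLC was near WT (9.21 and 11.2 TPM). Ovol3 in EpiLC labelled Ovol3KO had 5.8 and 5.66 TPM, against 13.0 and 10.4 TPM in WT. A whole-gene value does not show the loss of part of a gene. Cdh1 in PGCLC had 562 and 563 TPM in Cdh1-Tg, against 312 and 320 in WT and 24.0 and 17.2 in TKO. Ovol2 was far above WT in the 3 Ovol2 transgenic PGCLC, at 884, 320 and 3300 TPM in Ovol2a-Tg, Ovol2b-Tg and Ovol2a/2b-Tg against 9.12 TPM in WT. In 8 libraries the cell type tag contradicts the title, and the title was used. The tags call the Ovol2a-Tg PGCLC pair EpiLC, the Cdh1-Tg ESC pair PGCLC, and the Cdh1-Tg EpiLC and PGCLC pairs ESC. Markers sided with the titles: 5 nascent mesoderm markers summed to 1180 TPM in Ovol2a-Tg PGCLC and 976 TPM in Cdh1-Tg PGCLC, against 8.47 TPM in Cdh1-Tg EpiLC and 4.49 TPM in WT EpiLC. Cdh1-Tg ESC had 6.2 TPM, so these markers cannot part ESC from EpiLC. The 6 naive ESC markers summed to 952 TPM in Cdh1-Tg ESC and 45.7 TPM in Cdh1-Tg EpiLC. The 4 EpiLC markers summed to 332 TPM in Cdh1-Tg ESC and 2420 TPM in Cdh1-Tg EpiLC. The germ cell specifiers summed to 84.6 TPM in WT PGCLC, 2.61 TPM in WT EpiLC and 153 TPM in WT ESC. The wording of the labels differs between lines, and WT shares its wording with the knockout-labelled lines and Ovol2b-Tg alone. If wording marks a batch, the batch and the line cannot be told apart for Cdh1-Tg, Ovol2a-Tg and Ovol2a/2b-Tg.

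RefSeq promoter windows of build GRCm38.p6 were at hand for Nanos3, Tdrd5 and Kit, and the 250 bases before the start are shown for these 3 because Tdrd5 and Kit changed in opposite directions in 2 PGCLC lines while Nanos3 was seldom called. For Kit the first of 2 windows is given. The starts are those of RefSeq: the Nanos3 and Tdrd5 windows lie inside the gene spans given below. The Kit window reaches into its gene span. Capitals mark the OVO family core ACNGTTA, searched on both strands.
Tdrd5, chr1:156303349-156303598, minus strand: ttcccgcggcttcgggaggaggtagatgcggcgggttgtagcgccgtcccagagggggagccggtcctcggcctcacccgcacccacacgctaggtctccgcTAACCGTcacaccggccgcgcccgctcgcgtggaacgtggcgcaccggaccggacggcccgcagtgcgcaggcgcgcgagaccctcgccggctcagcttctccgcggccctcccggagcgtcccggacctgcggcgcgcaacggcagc
Kit, chr5:75574737-75574986, plus strand: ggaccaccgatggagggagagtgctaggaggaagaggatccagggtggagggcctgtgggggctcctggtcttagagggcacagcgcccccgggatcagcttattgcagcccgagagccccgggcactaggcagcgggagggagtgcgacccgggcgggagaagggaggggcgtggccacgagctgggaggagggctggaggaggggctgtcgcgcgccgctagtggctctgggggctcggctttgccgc
Nanos3, chr8:84176553-84176802, minus strand: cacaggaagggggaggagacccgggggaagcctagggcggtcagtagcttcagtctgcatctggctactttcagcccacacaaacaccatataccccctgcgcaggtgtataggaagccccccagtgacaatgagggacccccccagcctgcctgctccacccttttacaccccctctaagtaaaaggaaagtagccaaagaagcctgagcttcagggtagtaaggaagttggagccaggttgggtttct
The Tdrd5 window held 1 match, 148 bases before the start and on the reverse strand, and 5.05% of 32851 promoter windows of this length held one. Kit and Nanos3 had no match in these letters. The E-box CACGTG was in 6.02% of windows and in none of the 3 shown. Tdrd5 has a CpG-rich promoter with 40 CG pairs, more than 98.7% of windows, against 17 in Kit and 3 in Nanos3. A match describes the letters and is not a bound site.

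On the mouse build GRCm38 (mm10), Dppa3 lies on chromosome 6 (122626410 to 122630272), Nanos3 on chromosome 8 (84173731 to 84185217), Dnd1 on chromosome 18 (36763671 to 36766214), Tdrd5 on chromosome 1 (156255296 to 156303664) and Kit on chromosome 5 (75574916 to 75656722). Dnd1 overlaps Wdr55, which lies on the other strand. The library kit keeps strand, but the sources used here do not give the strand setting of the counting, so reads of both genes may not be fully parted. Wdr55 moved little between PGCLC lines, with log2 fold changes against WT between −0.30 and −0.02, and along the WT path it was higher in EpiLC than in ESC by 0.87 ± 0.1, with 0.14 ± 0.1 between PGCLC and EpiLC. Dppa3 and Dnd1 each have a pseudogene copy by name, whose reads could be split with theirs. Tdrd5 overlaps A430050A11Rik on the same strand and the antisense gene 4930518J20Rik, and Nanos3 overlaps the microRNA genes Mir181c and Mir181d. The levels of these overlapping genes were not examined.

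In WT the 5 genes took 3 different paths from ESC to PGCLC. Dppa3 and Kit were high in ESC and low afterwards, Dnd1 and Tdrd5 climbed towards PGCLC, and Nanos3 was scarce until PGCLC. Dppa3 had 111 and 143 TPM in ESC, 7.13 and 11 in EpiLC, and 18 and 20.4 in PGCLC. It was lower in EpiLC than in ESC (−3.68 ± 0.32 on the log2 scale, limma, BH adjusted p = 1.25e-11) and was higher again in PGCLC than in EpiLC (1.03 ± 0.32, BH adjusted p = 0.00697). Kit had 119 and 108 TPM in ESC, 7.65 and 7.03 in EpiLC, and 8.78 and 12.1 in PGCLC. It fell in EpiLC too (−3.78 ± 0.18, BH adjusted p = 1.07e-19), and in PGCLC its difference from EpiLC was 0.44 ± 0.18 (BH adjusted p = 0.0289), under the fold threshold. By PGCLC both remained below ESC, Dppa3 by −2.65 ± 0.32 and Kit by −3.33 ± 0.18. The Dppa3 call between PGCLC and EpiLC was a narrow one. Without the first WT EpiLC library it was 0.75 (BH adjusted p = 0.115), and without the second WT PGCLC library 0.94 (BH adjusted p = 0.0485). All genes together shifted by a median of 0.148 in this comparison, and relative to that median Dppa3 stood at 0.88.

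Tdrd5 was called at every step, with 3.86 and 3.80 TPM in ESC, 13.3 and 12.4 in EpiLC, and 34.7 and 40.2 in PGCLC. The gains were 1.52 ± 0.28 from ESC to EpiLC (BH adjusted p = 1.75e-05) and 1.47 ± 0.28 from EpiLC to PGCLC (BH adjusted p = 2.53e-05). Dnd1 had 14.3 and 7.56 TPM in ESC, 18.7 and 18.5 in EpiLC, and 43.3 and 52.7 in PGCLC. Its WT ESC libraries lay nearly as far apart as the ESC and EpiLC means did, and the ESC to EpiLC difference was 0.77 ± 0.20, which became 1.19 (BH adjusted p = 1.65e-05) without the first ESC library. Dnd1 was higher in PGCLC than in EpiLC by 1.32 ± 0.20 (BH adjusted p = 6.57e-07). Nanos3 had 0.993 and 0.951 TPM in ESC, 0.799 and 0.329 in EpiLC, and 9.81 and 9.05 in PGCLC, which rested on 3, 3 and 38 reads of each pair. It was higher in PGCLC than in EpiLC by 2.75 ± 0.46 (BH adjusted p = 3.43e-06), a read ratio of 22 with an exact 95% counting interval of 7 to 110. Intervals of this kind cover counting error only. In all, 3 of 5 members were called between EpiLC and ESC, where 20.6% of all tested genes were. Between PGCLC and EpiLC 4 of 5 were called (21.1% of all genes), and between PGCLC and ESC 5 of 5 (25.3% of all genes).

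**Figure D1:**
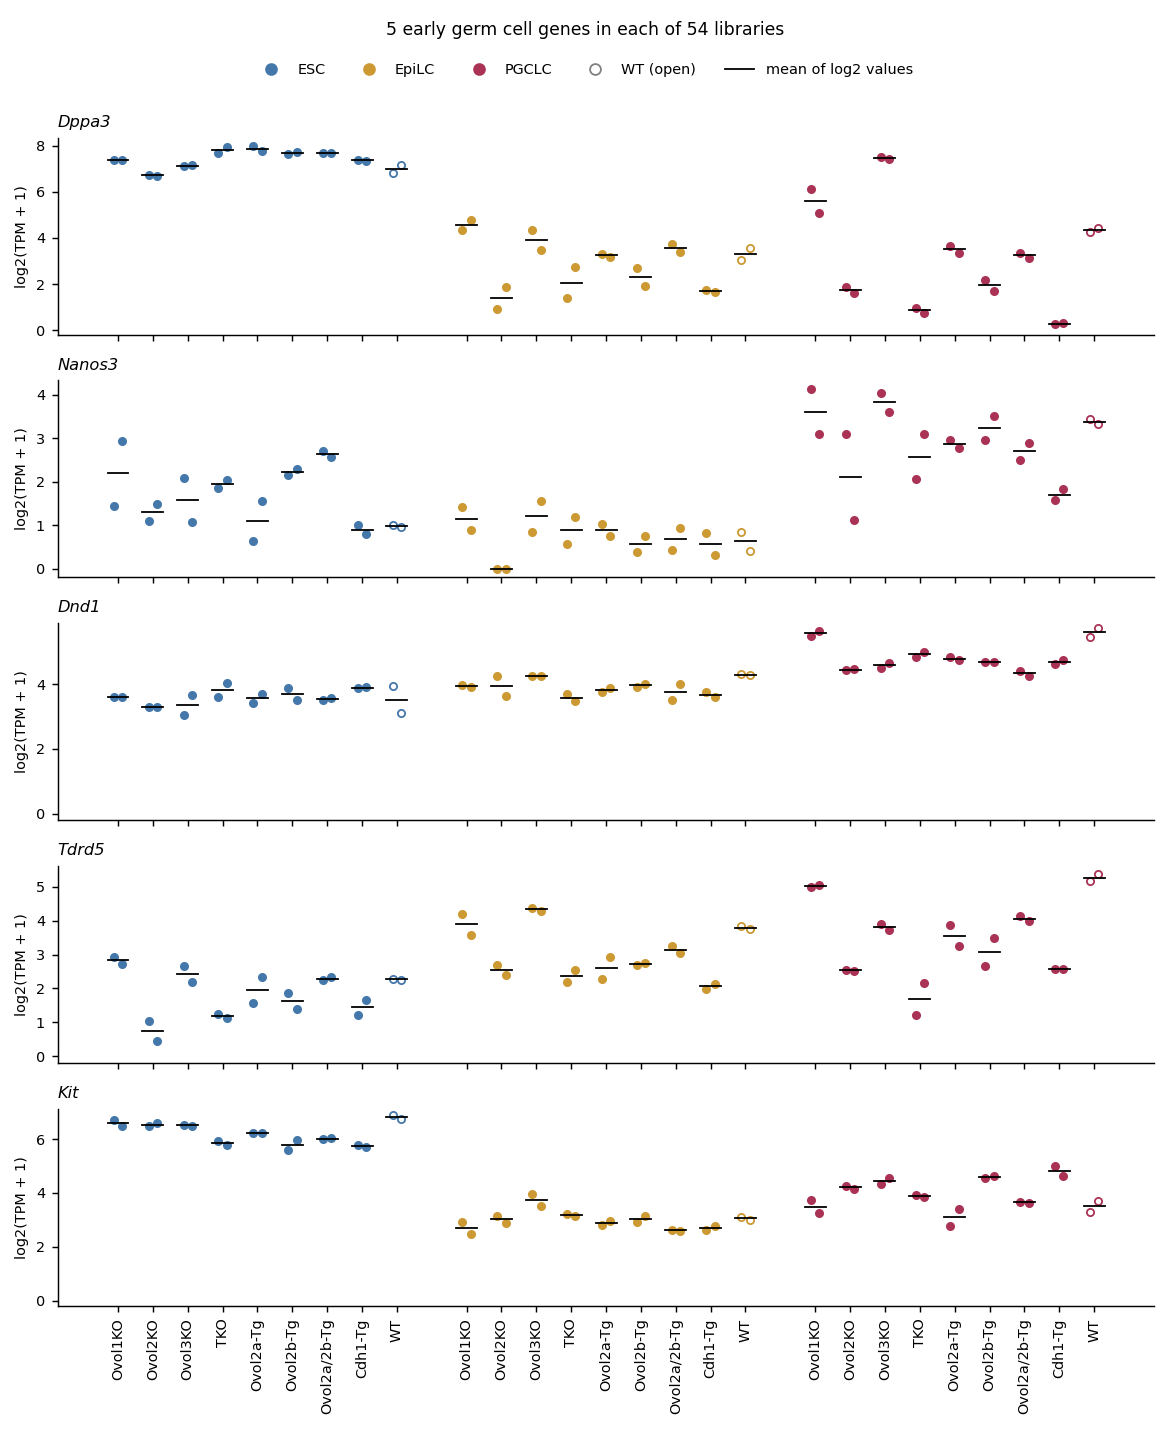
Level of each member as log2(TPM + 1) in every library, in panels by gene, with ESC, EpiLC and PGCLC from left to right and WT last in each stage as open points. Bars are means of 2 libraries. Dppa3 in PGCLC spread over 0.195 to 183 TPM, while Dnd1 stayed within 18.2 to 52.7 TPM.

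Among PGCLC the lines split by gene. Dppa3 and Tdrd5 were each called in 7 of 8 lines against WT, Dnd1 in 3, Kit in 2 and Nanos3 in 1. Dppa3 moved in both directions, Tdrd5 and Dnd1 were only called lower, and Kit was only called higher. By line, 1 of 5 members was called in PGCLC labelled Ovol1KO, where 0.666% of all tested genes were called, 3 in that labelled Ovol2KO (8.18% of all genes) and 3 in that labelled Ovol3KO (12.8%). The count was 2 in TKO (10.5% of all genes), 1 in Ovol2a-Tg (3.43%), 3 in Ovol2b-Tg (8.30%), 3 in Ovol2a/2b-Tg (7.62%) and 4 in Cdh1-Tg (9.86%). The share for Ovol1KO, 96 genes, was 13 genes without its first library and 489 without its second. All 8 comparisons share the same 2 WT libraries. In bulk RNA, fewer cells of a kind and less RNA per cell cannot be told apart.

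Dppa3 was high in PGCLC labelled Ovol3KO and Ovol1KO and low in 5 other lines. It had 68.5 and 32.6 TPM in the line labelled Ovol1KO, 2.69 and 2.09 in that labelled Ovol2KO and 183 and 173 in that labelled Ovol3KO, against 18 and 20.4 TPM in WT. TKO had 0.947 and 0.671 TPM and Cdh1-Tg 0.195 and 0.228 TPM, and both pairs lay more than an order of magnitude under WT. Ovol2a-Tg had 11.4 and 9.33 TPM, Ovol2b-Tg 3.53 and 2.29 TPM and Ovol2a/2b-Tg 9.33 and 7.67 TPM. No library of any other line overlapped the WT pair. Downwards, the order was Ovol3KO, Ovol1KO, WT, Ovol2a-Tg and Ovol2a/2b-Tg (whose ranges met), Ovol2b-Tg and Ovol2KO (which overlapped), TKO and Cdh1-Tg.

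In PGCLC labelled Ovol3KO, Dppa3 was up by 3.15 ± 0.26 (limma, BH adjusted p = 2.32e-07), with 1244 and 174 reads against 35 and 53 in WT. All genes shifted by a median of −0.115 in this comparison, so the gain relative to that median was 3.26. The level in that line, 178 ± 7.2 TPM (SD, n = 2), lay within the 104 to 251 TPM of the 18 ESC libraries. For the line labelled Ovol1KO the difference was 1.26 ± 0.26 (BH adjusted p = 0.0222), and it rested on the first library of that line: without it the value was 0.74 (BH adjusted p = 0.239). Leaving out either WT library ended this call too (1.18, BH adjusted p = 0.141, and 1.34, BH adjusted p = 0.0806), as did limma-voom on reads (1.07, BH adjusted p = 0.0600), no filter on low values and no shrinkage trend.

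The falls were deep. Dppa3 was lower in Cdh1-Tg PGCLC by −4.06 ± 0.26 (BH adjusted p = 2.94e-08), with 1 read in each library, a read ratio to WT of 0.01 (exact 95% interval 0.0012 to 0.038). In TKO it was −3.48 ± 0.26 (BH adjusted p = 1.32e-07), with 1 and 3 reads and a ratio of 0.036 (0.0096 to 0.096). In the line labelled Ovol2KO it was −2.58 ± 0.26 (BH adjusted p = 3.94e-06), with 10 and 2 reads. In Ovol2b-Tg it was −2.38 ± 0.26 (BH adjusted p = 7.38e-06), with 28 and 2 reads. Ovol2a/2b-Tg was nearer to WT (−1.09 ± 0.26, BH adjusted p = 0.00444), and without its second library it was −0.96, short of the fold threshold. Ovol2a-Tg, at −0.83 ± 0.26 (BH adjusted p = 0.0417), passed the p threshold but not that of fold.

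The 2 RNA-binding proteins differed in how firmly they could be read. Nanos3 rested on 1 to 94 reads per PGCLC library. It had 16.4 and 7.52 TPM in the line labelled Ovol1KO, 7.54 and 1.17 in that labelled Ovol2KO, 15.5 and 11.1 in that labelled Ovol3KO and 3.18 and 7.52 in TKO, against 9.81 and 9.05 TPM in WT. Ovol2a-Tg had 6.78 and 5.81 TPM, Ovol2b-Tg 6.78 and 10.3, Ovol2a/2b-Tg 4.69 and 6.45 and Cdh1-Tg 1.97 and 2.55. Each neighbour in the order from Ovol3KO down to Cdh1-Tg overlapped the next. The one call was lower in Cdh1-Tg (−1.68 ± 0.51, limma, BH adjusted p = 0.0177), and leaving out any of its own or the WT libraries ended it (BH adjusted p 0.0592 to 0.104). In the line labelled Ovol2KO the difference was −1.28 ± 0.51 (BH adjusted p = 0.0786), and its first library, with 25 reads, was near WT while the second had 1 read. Without that first library it was −2.27 (BH adjusted p = 0.00183). These depths leave the level of Nanos3 in that line unsettled.

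Dnd1 varied less and was measured on more reads, 36 to 492 per PGCLC library. It had 43.8 and 49.4 TPM in the line labelled Ovol1KO, 20.8 and 20.9 in that labelled Ovol2KO, 21.6 and 24.4 in that labelled Ovol3KO and 27.9 and 31.0 in TKO, against 43.3 and 52.7 TPM in WT. Ovol2a-Tg had 27.6 and 25.8 TPM, Ovol2b-Tg 24.8 and 24.9, Ovol2a/2b-Tg 20.3 and 18.2 and Cdh1-Tg 23.4 and 26.1. The line labelled Ovol1KO overlapped WT, and 14 of 16 libraries of the other lines lay below both WT libraries. Calls were made in Ovol2a/2b-Tg (−1.27 ± 0.11, limma, BH adjusted p = 9.84e-07), in the line labelled Ovol2KO (−1.16 ± 0.11, BH adjusted p = 2.91e-06) and in that labelled Ovol3KO (−1.03 ± 0.11, BH adjusted p = 3.60e-06). The values of TKO (−0.68), Ovol2a-Tg (−0.81), Ovol2b-Tg (−0.92) and Cdh1-Tg (−0.92) passed the p threshold and fell short of the fold threshold. Whether a line is on one side of it is therefore a matter of small steps: Ovol3KO was at −0.91 relative to the median of all genes, at −0.87 with TMM scaling and at −0.80 with quantile scaling, while Ovol2b-Tg and Cdh1-Tg were called with quantile scaling (−1 and −1.05). Without the second WT library Ovol3KO was at −0.89 and without its own first library at −0.94. Without the first WT library Ovol2b-Tg was at −1.05 and Cdh1-Tg at −1.06.

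Tdrd5 was lower than in WT in 7 of 8 lines, and no library of the other lines exceeded the WT pair. It had 30.7 and 32.1 TPM in the line labelled Ovol1KO, 4.89 and 4.67 in that labelled Ovol2KO, 14.0 and 12.2 in that labelled Ovol3KO and 1.34 and 3.48 in TKO, against 34.7 and 40.2 TPM in WT. Ovol2a-Tg had 13.6 and 8.44 TPM, Ovol2b-Tg 5.32 and 10.3, Ovol2a/2b-Tg 16.5 and 14.9 and Cdh1-Tg 4.91 and 4.93. The order ran from WT and Ovol1KO through Ovol2a/2b-Tg, then Ovol3KO, Ovol2a-Tg and Ovol2b-Tg with ranges that overlapped, to Cdh1-Tg, Ovol2KO and TKO.

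The difference from WT was −3.57 ± 0.29 in TKO (limma, BH adjusted p = 2.62e-07), −2.73 ± 0.29 in the line labelled Ovol2KO (BH adjusted p = 5.69e-06) and −2.70 ± 0.29 in Cdh1-Tg (BH adjusted p = 3.67e-06). It was −2.19 ± 0.29 in Ovol2b-Tg, −1.71 ± 0.29 in Ovol2a-Tg, −1.45 ± 0.29 in the line labelled Ovol3KO and −1.20 ± 0.29 in Ovol2a/2b-Tg, with BH adjusted p from 3.88e-05 to 0.00443. These 7 calls were kept when any 1 library was left out and under both other scalings and both other pseudocounts. In the line labelled Ovol3KO, Tdrd5 and Dppa3 thus moved in opposite directions, while in 5 other lines both were lower. The line labelled Ovol1KO was at −0.24 ± 0.29 (BH adjusted p = 0.712).

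Kit was not low where Dppa3 and Tdrd5 were. It had 12.2 and 8.63 TPM in PGCLC labelled Ovol1KO, 18.3 and 16.6 in that labelled Ovol2KO, 19.3 and 22.8 in that labelled Ovol3KO and 14.3 and 13.3 in TKO, against 8.78 and 12.1 TPM in WT. Ovol2a-Tg had 5.88 and 9.64 TPM, Ovol2b-Tg 22.8 and 23.9, Ovol2a/2b-Tg 11.6 and 11.5 and Cdh1-Tg 31.2 and 23.6. Cdh1-Tg, Ovol2b-Tg and Ovol3KO formed an overlapping top group, and Ovol2a/2b-Tg, WT, Ovol1KO and Ovol2a-Tg an overlapping lower one. Against WT, Kit was higher in Cdh1-Tg (1.31 ± 0.21, limma, BH adjusted p = 0.000161) and in Ovol2b-Tg (1.10 ± 0.21, BH adjusted p = 0.000953). The Ovol2b-Tg value was 0.89 without the first WT library. The line labelled Ovol3KO was at 0.95 ± 0.21 (BH adjusted p = 0.00166), which was 1.07 relative to the median of all genes, 1.11 with TMM and 1.16 with quantile scaling. It also crossed the fold threshold without its own first library (1.07) or the second WT library (1.17). All 18 PGCLC libraries remained under the ESC level of Kit, 47.7 to 119 TPM.

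**Figure D2:**
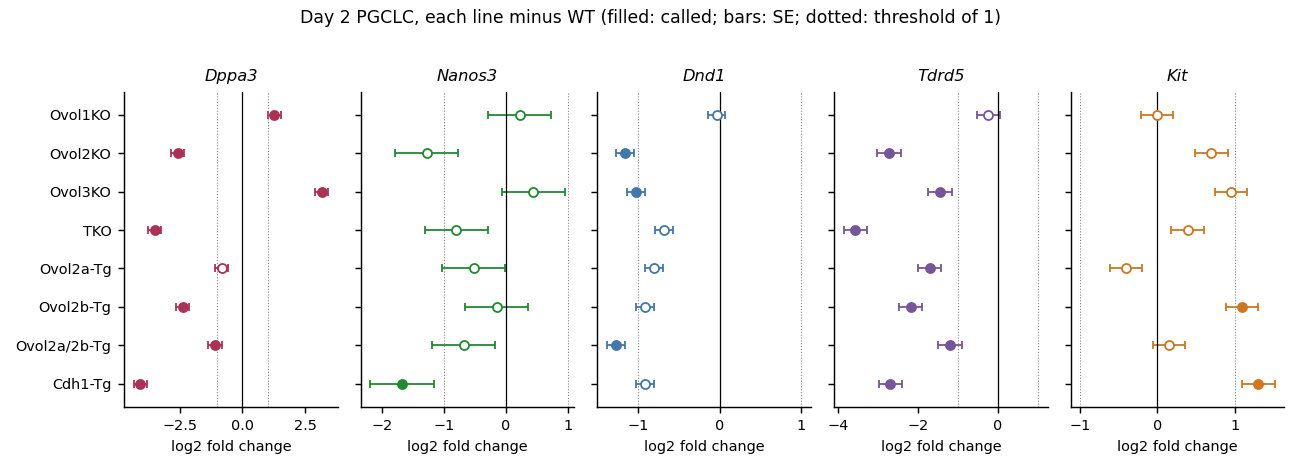
Log2 fold change of each member in day 2 PGCLC, each line minus WT, with SE bars. Filled points were called, and dotted lines mark a fold change of 1 in either direction. Tdrd5 lies left of 0 in every line, and Dppa3 runs from −4.06 in Cdh1-Tg to 3.15 in the line labelled Ovol3KO.

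Levels of other marker genes also differed between PGCLC lines. The 6 naive ESC markers, a state in which Dppa3 is also high, summed to 503 and 460 TPM in PGCLC labelled Ovol3KO and to 302 and 239 in that labelled Ovol1KO, against 216 and 209 TPM in WT. They summed to 124 and 127 TPM in Cdh1-Tg, 179 and 177 in TKO, 195 and 201 in the line labelled Ovol2KO and 139 and 157 in Ovol2a/2b-Tg. In Ovol2a-Tg the sums were 195 and 196 TPM. In Ovol2b-Tg, where Dppa3 was called lower, they were 193 and 211 TPM and overlapped WT. Against WT, 5 of 6 were called higher and 1 lower in the line labelled Ovol3KO, and 5 were called lower in Cdh1-Tg and in TKO. The 5 nascent mesoderm markers summed to 218 and 104 TPM in the line labelled Ovol3KO, with Msgn1 listed at 0, and to 504 to 1590 TPM in the libraries of the other lines, against 1750 and 1740 TPM in WT. Germ cell specifiers summed to 139 and 139 TPM in the line labelled Ovol3KO, 32.7 and 34.7 in TKO and 86.1 and 85.4 in Cdh1-Tg, against 86.9 and 82.3 TPM in WT. Their sum was 150 and 156 TPM in WT ESC, so it was not particular to PGCLC. Cdh1-Tg had the WT PGCLC sum of specifiers with 1 read of Dppa3 per library. The 4 EpiLC markers summed to 301 and 386 TPM in the line labelled Ovol3KO, against 150 and 180 TPM in WT PGCLC. Libraries of the other lines had 75.7 to 248 TPM, and WT EpiLC had 1580 and 1640 TPM. The 5 endoderm markers summed to 3.19 and 2.41 TPM in the line labelled Ovol3KO, against 26.9 and 18.7 TPM in WT PGCLC. Libraries of the other lines had 9.91 to 66.2 TPM. The part of these markers in the Dppa3 and Tdrd5 results was not tested.

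Cell types that use Kit outside the germ line were also looked at. Of 8 tested blood and endothelium markers, 2 were called higher in Cdh1-Tg and 3 in Ovol2b-Tg, with sums of 51.0 and 46.6 TPM and 58.6 and 49.8 TPM, against 35.1 and 28.7 TPM in WT. Lines without a Kit call had as much: 4 were called higher in TKO (49.8 and 65.7 TPM) and 2 in Ovol2a/2b-Tg (60.1 and 63.1 TPM). Gata1 was at 0 in all 4 of these lines and in WT. The 4 mast cell markers were at 0 in both libraries of WT, TKO, Ovol2b-Tg, Ovol2a/2b-Tg and the lines labelled Ovol1KO and Ovol3KO, and summed to at most 0.222 TPM in any PGCLC library. Of 4 melanocyte genes, Tyr and Dct were at 0 in all PGCLC groups, while Pmel and Mitf brought the sum to 2.8 to 12.6 TPM by group. Pmel was called higher in the line labelled Ovol3KO (11.1 TPM against 4.29 TPM in WT, 1.21 ± 0.43), where Kit was at 0.95. Fibroblast genes were listed as possible marks of feeder cells. In TKO, Ovol2b-Tg and Ovol2a/2b-Tg PGCLC, 4 of 4 tested genes were called higher. The count was 3 in Ovol2a-Tg and 1 in Cdh1-Tg and in the line labelled Ovol2KO. The sums were 265 and 277 TPM in TKO, 247 and 269 in Cdh1-Tg and 215 and 166 in Ovol2b-Tg. WT PGCLC had 23.2 and 16.0 TPM. In ESC the sums were 2.92 and 3.7 TPM in TKO, 8.12 and 12 in Cdh1-Tg and 2.4 and 2.56 in Ovol2b-Tg. WT ESC had 3.25 and 2.49 TPM. Whether the PGCLC reads of these genes came from feeder cells was not tested. The part of all these cell types in the Kit result was not tested either.

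At the EpiLC stage Dppa3 and Tdrd5 already differed between lines. Tdrd5 had 17.4 and 10.9 TPM in EpiLC labelled Ovol1KO, 5.47 and 4.29 in that labelled Ovol2KO, 19.7 and 18.6 in that labelled Ovol3KO and 3.61 and 4.83 in TKO, against 13.3 and 12.4 TPM in WT. Ovol2a-Tg had 3.88 and 6.63 TPM, Ovol2b-Tg 5.44 and 5.70, Ovol2a/2b-Tg 8.43 and 7.20 and Cdh1-Tg 2.98 and 3.40. Of the 8 lines, 5 were called lower: Cdh1-Tg (−1.72 ± 0.22, limma, BH adjusted p = 1.56e-05), TKO (−1.41 ± 0.22, BH adjusted p = 0.000362), Ovol2KO (−1.24 ± 0.22), Ovol2a-Tg (−1.18 ± 0.22) and Ovol2b-Tg (−1.07 ± 0.22). Ovol2a-Tg fell short of the fold threshold without its first library (−0.86). The line labelled Ovol3KO, lower in PGCLC, was at 0.54 ± 0.22 (BH adjusted p = 0.0697) in EpiLC.

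Dppa3 had 19.6 and 26.5 TPM in EpiLC labelled Ovol1KO, 0.893 and 2.70 in that labelled Ovol2KO, 19.3 and 10.3 in that labelled Ovol3KO and 1.62 and 5.69 in TKO, against 7.13 and 11 TPM in WT. Ovol2a-Tg had 9.01 and 8.04 TPM, Ovol2b-Tg 5.57 and 2.72, Ovol2a/2b-Tg 12.2 and 9.56 and Cdh1-Tg 2.30 and 2.19. It was lower in the line labelled Ovol2KO (−1.90 ± 0.41, limma, BH adjusted p = 0.00903) and in Cdh1-Tg (−1.61 ± 0.41, BH adjusted p = 0.00517). The second WT library carried part of both calls: without it they were −1.62 (BH adjusted p = 0.0582) and −1.32 (BH adjusted p = 0.0519), and Ovol2KO without its own first library was −1.42 (BH adjusted p = 0.1). TKO sat at the threshold (−1.24 ± 0.41, BH adjusted p = 0.0506). It was called with the replicate number as a block (BH adjusted p = 0.0463), with either other scaling, on recovered reads (−2.22, BH adjusted p = 0.000560) and without its second library (−1.92, BH adjusted p = 0.0117).

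The other 3 genes gave no call between EpiLC lines and WT in limma, and the counts by line below give what passed without adjustment. Dnd1 had 10.1 to 18.2 TPM in the other lines, all below the 18.7 and 18.5 TPM of WT. Kit had 4.54 to 14.5 TPM and was at 14.5 and 10.5 TPM in the line labelled Ovol3KO, against 7.65 and 7.03 TPM in WT. Nanos3 had no read in either EpiLC library labelled Ovol2KO, where 3 reads would be worth 0.751 and 2.27 TPM, and 1 to 9 reads in the other EpiLC libraries, WT included. By line, 2 of 5 members were called in EpiLC labelled Ovol2KO (1.42% of all genes) and 2 in Cdh1-Tg (6.38%). In TKO (2.30% of all genes), Ovol2a-Tg (2.06%) and Ovol2b-Tg (1.67%) the count was 1 each. In EpiLC labelled Ovol1KO (0.486% of all genes), in that labelled Ovol3KO (2.85%) and in Ovol2a/2b-Tg (4.50%) it was 0 in limma, with 1, 2 and 3 members at an unadjusted p under 0.05 and 0 called by limma-voom. Dppa3 in EpiLC labelled Ovol1KO was at 1.27 ± 0.41 (BH adjusted p = 0.111) and was called in the fit of all 54 libraries (BH adjusted p = 0.0271).

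As ESC, 6 of the 40 differences from WT were called, in Tdrd5, Kit and Nanos3. Dppa3 lay at 104 to 251 TPM over all 18 libraries and had its lowest level in the line labelled Ovol2KO (105 and 104 TPM) and its highest in Ovol2a-Tg (251 and 219 TPM), against 111 and 143 TPM in WT. Its largest differences from WT, 0.89 ± 0.11 in Ovol2a-Tg and 0.83 ± 0.11 in TKO, were under the fold threshold, and without the second WT library they were 1.07 and 1.01. Kit lay at 47.7 to 103 TPM in the 16 libraries of the other lines, all below the 119 and 108 TPM of WT. It was called lower in Cdh1-Tg (54.3 and 51.5 TPM, −1.09 ± 0.11, limma, BH adjusted p = 5.14e-06) and in Ovol2b-Tg (47.7 and 61.2 TPM, −1.06 ± 0.11, BH adjusted p = 1.25e-05), the same 2 lines in which it was called higher as PGCLC. The Ovol2b-Tg value was −0.98 without the first WT library and −0.88 without its own first library. TKO, at −0.97, was −1.04 without its first or the second WT library.

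Tdrd5 was scarce in ESC, with 0.376 to 6.68 TPM. It was lower in the line labelled Ovol2KO (1.04 and 0.376 TPM against 3.86 and 3.80 TPM in WT, −1.53 ± 0.28, limma, BH adjusted p = 0.00208) and in TKO (1.37 and 1.19 TPM, −1.09 ± 0.28, BH adjusted p = 0.0147). The TKO call was lost without either WT library or its second one (BH adjusted p 0.0550 to 0.0954) and with quantile scaling (−0.96). Nanos3 was called higher in ESC of Ovol2a/2b-Tg (5.50 and 4.89 TPM) and Ovol2b-Tg (3.42 and 3.87 TPM), against 0.993 and 0.951 TPM in WT. These WT values stand on 2 and 1 reads. The read ratios to WT were 5.4 (exact 95% interval 1.7 to 28) and 3.9 (0.97 to 22), and the Ovol2b-Tg call (1.23 ± 0.42, BH adjusted p = 0.0443) was lost on recovered reads (BH adjusted p = 0.131) and without any 1 of its 4 libraries. The Ovol2a/2b-Tg call (1.65 ± 0.42, BH adjusted p = 0.0118) was lost without either of its own libraries or the second WT one. Without the first library of ESC labelled Ovol1KO, Nanos3 there was called at 1.95 (main value 1.21 ± 0.42, BH adjusted p = 0.171). Dnd1 had 7.36 to 15.3 TPM in all ESC libraries, within or near the 14.3 and 7.56 TPM of WT. By line, 2 of 5 members were called in Ovol2b-Tg ESC (5.56% of all genes) and 1 each in the line labelled Ovol2KO (3.36%), TKO (4.08%), Ovol2a/2b-Tg (4.31%) and Cdh1-Tg (6.40%). In ESC labelled Ovol1KO (0.541% of all genes) and Ovol3KO (1.85%) and in Ovol2a-Tg (4.95%) it was 0 in limma, with 3, 1 and 2 members at an unadjusted p under 0.05. In Ovol2a-Tg limma-voom called Dppa3 (1.03).

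From EpiLC to PGCLC, Nanos3 was the only member called in every line in the main fit, though not every one of these calls held. It was called higher in PGCLC than in EpiLC in 8 of 8 lines other than WT, by 1.13 ± 0.46 in Cdh1-Tg to 2.67 ± 0.46 in Ovol2b-Tg, against 2.75 ± 0.46 in WT. The Cdh1-Tg call was lost with TMM scaling (BH adjusted p = 0.0551) and without its second EpiLC library or either PGCLC library (BH adjusted p 0.0617 to 0.198), and the TKO call without its second PGCLC library (1.19, BH adjusted p = 0.0603). In the line labelled Ovol2KO, whose EpiLC had no read, PGCLC had 7.54 TPM (25 reads) and 1.17 TPM (1 read), and a floor of 3 reads per EpiLC library averages 1.51 TPM. The first PGCLC library lies above that floor and the second below it, so no fold is given. With 3 to 13 EpiLC reads in the other lines, read ratios ran from 4.3 (exact 95% interval 1.4 to 17) in Cdh1-Tg to 14 (4.6 to 71) in Ovol2b-Tg, against 22 (7 to 110) in WT. With a pseudocount of 5, Nanos3 was called in only 3 of these 8 lines, Ovol1KO, Ovol3KO and Ovol2b-Tg.

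Dppa3 went opposite ways in different lines over the same step. PGCLC were higher than EpiLC by 3.56 ± 0.32 in the line labelled Ovol3KO (limma, BH adjusted p = 6.58e-11) and by 1.02 ± 0.32 in that labelled Ovol1KO, and lower by −1.21 ± 0.32 in TKO (BH adjusted p = 0.00156) and by −1.42 ± 0.32 in Cdh1-Tg (BH adjusted p = 0.000322), against 1.03 ± 0.32 in WT. The Ovol1KO call was lost without its first EpiLC library (0.82) or its first PGCLC library (0.50), and was 1.55 without its second PGCLC library. TKO was −0.54 without its second EpiLC library and −1.89 without the first, and on recovered reads its adjusted p was 0.143. The TKO fall rested on 4 PGCLC reads against 25 EpiLC reads, a ratio of 0.29 (exact 95% interval 0.074 to 0.85). That of Cdh1-Tg rested on 2 against 20 reads, a ratio of 0.09 (0.01 to 0.37). With a pseudocount of 5 these falls were −0.53 in TKO and −0.48 in Cdh1-Tg, and neither was called. Kit was called higher in PGCLC than in EpiLC in Cdh1-Tg (2.11 ± 0.18), Ovol2b-Tg (1.59 ± 0.18), Ovol2KO (1.19 ± 0.18) and Ovol2a/2b-Tg (1.04 ± 0.18), against 0.44 ± 0.18 in WT. Relative to the median of all genes Ovol2a/2b-Tg was at 0.88. Dnd1 was called in Ovol1KO (1.64 ± 0.20), TKO (1.34 ± 0.20) and Cdh1-Tg (1.01 ± 0.20; 0.89 relative to the median), against 1.32 ± 0.20 in WT. Tdrd5 was called in Ovol1KO alone (1.13 ± 0.28, and 0.82 without its second EpiLC library), against 1.47 ± 0.28 in WT. In TKO it was at −0.68 ± 0.28 (BH adjusted p = 0.0327) and without the second PGCLC library it was called lower (−1.15, BH adjusted p = 0.00238). In Ovol2a/2b-Tg it was at 0.92 ± 0.28, and 1.03 without the first EpiLC library. Called members numbered 4 in Ovol1KO (17.2% of all genes), 2 in Ovol2KO (24.3%), 2 in Ovol3KO (12.8%), 3 in TKO (24.5%), 1 in Ovol2a-Tg (19.8%), 2 in Ovol2b-Tg (23.8%), 2 in Ovol2a/2b-Tg (24.2%) and 4 in Cdh1-Tg (22.9%). Without the second Cdh1-Tg library of either stage Dnd1 there was 0.94. In Ovol2a-Tg, Dnd1 (0.97) and Tdrd5 (0.95) crossed the fold threshold without some libraries, and in Ovol1KO Kit (0.80) did.

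**Figure D3:**
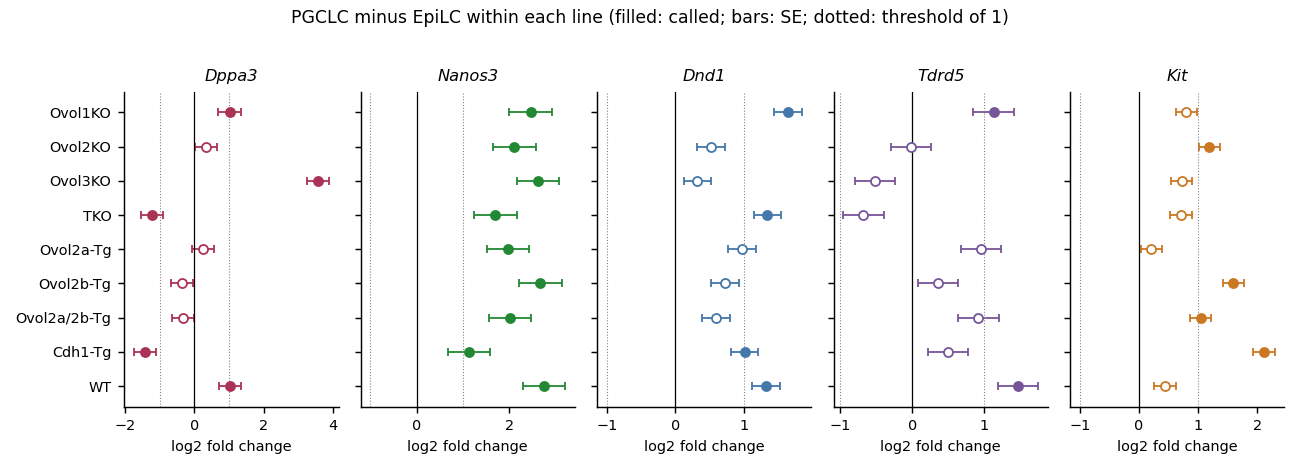
Log2 fold change of each member between PGCLC and EpiLC within each line, with SE bars and WT in the bottom row. Filled points were called. Nanos3 is filled in every row, and Dppa3 runs from −1.42 in Cdh1-Tg to 3.56 in the line labelled Ovol3KO.

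The difference between a line's change and that of WT was tested directly. For Dppa3 the change from EpiLC to PGCLC exceeded that of WT by 2.54 ± 0.46 in the line labelled Ovol3KO (limma, BH adjusted p = 4.10e-05). It fell short of the WT change by −2.45 ± 0.46 in Cdh1-Tg (BH adjusted p = 0.000140), −2.24 ± 0.46 in TKO (BH adjusted p = 0.000447), −1.39 ± 0.46 in Ovol2b-Tg (BH adjusted p = 0.0343) and −1.35 ± 0.46 in Ovol2a/2b-Tg (BH adjusted p = 0.0353). For Tdrd5 it fell short by −2.15 ± 0.39 in TKO, −1.99 ± 0.39 in the line labelled Ovol3KO, −1.49 ± 0.39 in that labelled Ovol2KO (BH adjusted p = 9.18e-05, 0.000117 and 0.00684) and −1.11 ± 0.39 in Ovol2b-Tg (BH adjusted p = 0.0481). Kit gained more than in WT in Cdh1-Tg (1.67 ± 0.25, BH adjusted p = 3.34e-06) and Ovol2b-Tg (1.14 ± 0.25, BH adjusted p = 0.00104).

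The calls near the threshold did not hold in every setting. Those of Dppa3 and Tdrd5 in Ovol2b-Tg and of Dppa3 in Ovol2a/2b-Tg were lost when single libraries of WT or of the line were left out, with adjusted p up to 0.227, 0.297 and 0.170. On recovered reads the Dppa3 values in TKO (−2.23, BH adjusted p = 0.0734), Ovol2b-Tg and Ovol2a/2b-Tg missed the p threshold. Kit in Ovol2b-Tg was 0.93 without the first WT PGCLC library. The 2 Ovol2b-Tg EpiLC libraries were nearly as alike as sampling of reads allows (chi-square over its degrees of freedom 1.05), and averaged as 1 sample it gave −1.44 for Dppa3 (BH adjusted p = 0.0534) and −1.11 for Tdrd5 (BH adjusted p = 0.110). By line, 1 of 5 members was called in Ovol2KO (7.71% of all genes), 2 in Ovol3KO (16.1%), 2 in TKO (9.41%), 3 in Ovol2b-Tg (7.60%), 1 in Ovol2a/2b-Tg (7.07%) and 2 in Cdh1-Tg (9.61%). In Ovol1KO (0.576% of all genes) and Ovol2a-Tg (3.01%) 0 were called by limma or by limma-voom, and 0 had an unadjusted p under 0.05. Dnd1 was near the threshold in Ovol3KO (−0.99 ± 0.28, BH adjusted p = 0.00501) and, on recovered reads or without the second Ovol2KO EpiLC library, was called in Ovol3KO (−1.04) and Ovol2KO (−1.03 and −1.12) as well.

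Set against TKO instead of WT, the PGCLC of the Ovol2 transgenic lines had more Dppa3 and Tdrd5. Dppa3 had 11.4 and 9.33 TPM in Ovol2a-Tg and 9.33 and 7.67 TPM in Ovol2a/2b-Tg, against 0.947 and 0.671 TPM in TKO. These were higher by 2.65 ± 0.26 (limma, BH adjusted p = 1.98e-05) and 2.39 ± 0.26 (BH adjusted p = 6.90e-06), or read ratios of 15 (exact 95% interval 5.7 to 55) and 12 (4.3 to 44). Ovol2b-Tg, with 3.53 and 2.29 TPM, was at 1.10 ± 0.26 (BH adjusted p = 0.0573), and with the replicate number as a block its adjusted p was 0.0330. Tdrd5 was higher than in TKO by 2.37 ± 0.29 in Ovol2a/2b-Tg (BH adjusted p = 1.77e-05), 1.86 ± 0.29 in Ovol2a-Tg (BH adjusted p = 0.000622) and 1.38 ± 0.29 in Ovol2b-Tg (BH adjusted p = 0.0319). The Ovol2b-Tg call was lost on recovered reads (0.99, BH adjusted p = 0.335), without the first TKO library (0.91) and without the second Ovol2b-Tg library (0.97).

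Ovol2a-Tg and Ovol2b-Tg differed from each other in Dppa3 (1.55 ± 0.26 for Ovol2a-Tg over Ovol2b-Tg, limma, BH adjusted p = 0.00390) and in Kit, which had 5.88 and 9.64 TPM in Ovol2a-Tg against 22.8 and 23.9 TPM in Ovol2b-Tg (−1.51 ± 0.21, BH adjusted p = 0.00103). The Dppa3 call was lost without the first Ovol2a-Tg library (1.42, BH adjusted p = 0.0805) or the second Ovol2b-Tg library (1.32, BH adjusted p = 0.0530). Ovol2a/2b-Tg had more Dppa3 than Ovol2b-Tg (1.29 ± 0.26, BH adjusted p = 0.00196). Its Tdrd5 and Kit differences from Ovol2b-Tg were 0.99 ± 0.29 and −0.96 ± 0.21, just under the fold threshold, and Tdrd5 was 1.40 without the second Ovol2b-Tg library. Against Ovol2a-Tg the double line was at −0.26 ± 0.26 for Dppa3 and 0.51 ± 0.29 for Tdrd5.

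Cdh1-Tg was not above TKO in Dppa3 (−0.57 ± 0.26, BH adjusted p = 0.140). Its Tdrd5 and Kit were at 0.87 ± 0.29 (BH adjusted p = 0.0451) and 0.93 ± 0.21 (BH adjusted p = 0.00642) over TKO, and without the second TKO library Tdrd5 was 1.34, while without the second Cdh1-Tg library Kit was 1.12. TKO had less Dppa3 than the line labelled Ovol2KO, 0.947 and 0.671 TPM against 2.69 and 2.09 TPM, ranges that did not overlap. The difference was −0.90 ± 0.26 (BH adjusted p = 0.0559), and with a pseudocount of 0.1 it was called (−1.46, BH adjusted p = 0.0117). For Tdrd5 it was −0.84 ± 0.29 for Tdrd5 (BH adjusted p = 0.103), which was −1.30 without the second TKO library. Called members numbered 2 for Ovol2a-Tg over TKO (3.29% of all genes), 1 for Ovol2b-Tg over TKO (0.354%), 2 for Ovol2a/2b-Tg over TKO (8.37%), 2 for Ovol2a-Tg over Ovol2b-Tg (0.930%) and 1 for Ovol2a/2b-Tg over Ovol2b-Tg (5.17%). For TKO over Ovol2KO (0.985% of all genes), Cdh1-Tg over TKO (2.30%) and Ovol2a/2b-Tg over Ovol2a-Tg (2.39%) limma called 0, with 3, 4 and 2 members at an unadjusted p under 0.05. Limma-voom called Nanos3 in the second of these (−1.49). The lines share TKO or Ovol2b-Tg as the one they are set against.

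**Figure D4:**
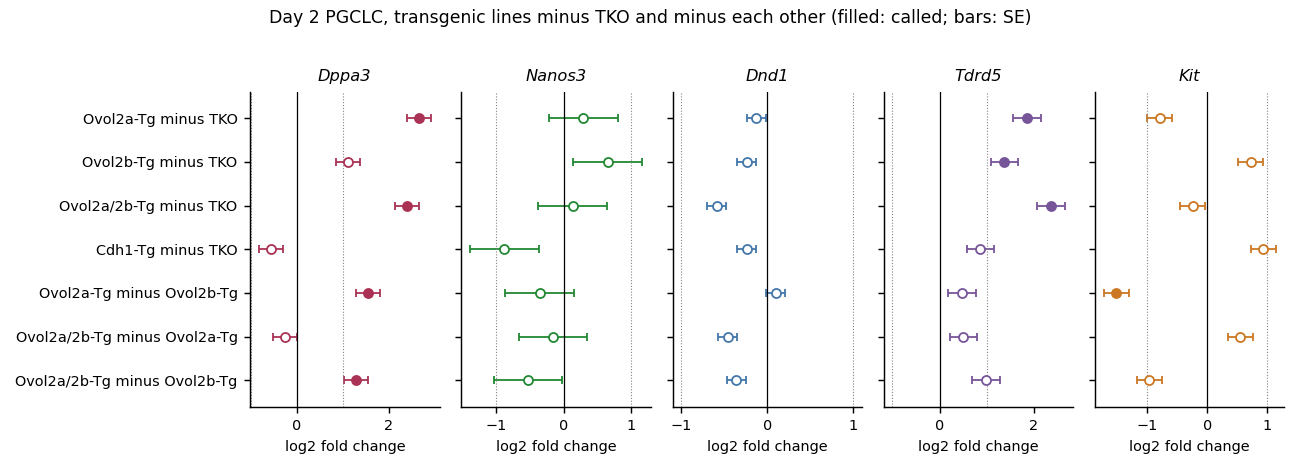
Log2 fold change of each member in day 2 PGCLC between transgenic lines and TKO and among transgenic lines, with SE bars. Filled points were called. Dppa3 and Tdrd5 lie right of 0 for all 3 Ovol2 transgenic lines over TKO, and Kit splits Ovol2a-Tg from Ovol2b-Tg.

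The specifiers act upstream of these genes. In WT, Tfap2c, Prdm14 and Prdm1 were all higher in PGCLC than in EpiLC (4.48 ± 0.22, 3.74 ± 0.15 and 3.58 ± 0.17). WT ESC had 84.1, 42.6 and 26.2 TPM of them, against 43.9, 12.6 and 28.1 TPM in WT PGCLC. In PGCLC against WT, Tfap2c was lower in TKO (−1.67 ± 0.20) and in the line labelled Ovol2KO (−1.35 ± 0.20), higher in that labelled Ovol3KO (1.20 ± 0.20), and Prdm1 was lower in TKO (−1.33 ± 0.21) and Ovol2a-Tg (−1 ± 0.21).

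Partners of DPPA3 and other Dppa genes include the stem cell genes Dppa2, Dppa4 and Dppa5a and the DNA methyltransferases and TET enzymes. Of 12 tested, 7 were higher and none lower in PGCLC labelled Ovol3KO (median log2 fold change 1.28, against −0.115 over all genes). Dnmt3l (4.24 ± 0.26), a cofactor of de novo methylation, Dppa2 (2.90 ± 0.30) and Dppa4 (2.72 ± 0.31) led. Dnmt3l had 108 TPM in that line, against 4.76 TPM in WT PGCLC and 84.0 TPM in WT EpiLC. Dppa4 had 151 TPM in that line, against 22.1 TPM in WT PGCLC and 207 TPM in WT EpiLC. The line labelled Ovol1KO had 3 higher (median 0.38, against 0.002 over all genes), that labelled Ovol2KO 1 higher and 6 lower (median −0.86, against 0.036), Cdh1-Tg 1 higher and 5 lower (median −0.61, against 0.063) and TKO 1 higher and 4 lower (median −0.53, against 0.032). Dppa5a had 9.17 TPM in Cdh1-Tg and 80.0 TPM in TKO, against 679 TPM in WT (−6.06 ± 0.30 and −3.10 ± 0.30). Dppa4 was lower in Cdh1-Tg (−3.65 ± 0.31) and TKO (−1.40 ± 0.31). The counts are those of the same limma tests, and no test of the list itself was run.

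NANOS and DND1 partners, the Pumilio proteins and the CCR4-NOT deadenylase, were seldom called between PGCLC lines. Of 16 tested, 1 was called in 1 line against WT: Tob1, an adaptor of that complex, was lower in Cdh1-Tg (8.10 TPM against 18.9 TPM in WT, −1.13 ± 0.16). The list medians lay between −0.05 and 0.07, and 9.86% of all genes were called in Cdh1-Tg. In WT, Btg1 was higher in PGCLC than in EpiLC (1.04 ± 0.12), after being lower in EpiLC than in ESC (−1.99 ± 0.12), as Tob1 was (−1.35 ± 0.14). Tob1 (−1.38 ± 0.14) and Nanos1 (−1.07 ± 0.21), a relative of Nanos3, were lower in PGCLC than in ESC.

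Tudor and piRNA pathway genes went the other way from Tdrd5 in WT. Of 20 tested, 2 were higher and 13 lower in PGCLC than in EpiLC (median −1.64, against 0.148 over all genes), while Tdrd5 was higher. Mael (−4.37 ± 0.31), Tdrd12 (−4.32 ± 0.23) and Rnf17 (−2.61 ± 0.12) fell. In PGCLC labelled Ovol3KO 9 of the 20 were higher and none lower (median 0.67), among them Tdrd12 (3.34 ± 0.31), the piRNA-binding protein gene Piwil2 (2.09 ± 0.22) and Stk31 (2.05 ± 0.25), whereas Tdrd5 was lower in that line. In TKO and Cdh1-Tg 1 of 20 was lower, Tdrd12 in both (−1.04 ± 0.31 and −1.83 ± 0.31), and the medians were 0.01 and −0.02. Over all genes, 10.5% were called in TKO and 9.86% in Cdh1-Tg. Several pathway genes were already under 1 TPM in WT PGCLC, such as Mael (0.409), Fkbp6 (0.54), Piwil2 (0.278) and Stk31 (0.13). On the log2(TPM + 1) scale such genes cannot fall by 1. These counts therefore do not show whether the pathway fell with Tdrd5.

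KIT ligand and the genes of KIT signalling numbered 23 tested. In WT, Kitl, the ligand, was higher in PGCLC than in EpiLC (17.1 TPM against 0.372 TPM, 3.72 ± 0.22). In Cdh1-Tg PGCLC, 6 of 23 were higher than in WT and none lower (median 0.31), with Pdgfrb (2.03 ± 0.21) and Pdgfra (1.86 ± 0.23), receptors related to KIT, Gab2 (1.47 ± 0.26) and Kitl (1.17 ± 0.22) as the leading ones. Ovol2b-Tg had 3 higher (median 0.25), namely Pdgfrb (2.01 ± 0.21), Pdgfra (1.83 ± 0.23) and Gab2 (1.17 ± 0.26). These 3 were also called higher in TKO (1.97, 1.84 and 1.13), in the line labelled Ovol2KO (1.81, 1.53 and 1.01) and in Ovol2a/2b-Tg (1.60, 1.05 and 1.39), where Kit was not called against WT. In the line labelled Ovol3KO Kitl was lower (1.19 TPM against 17.1 TPM in WT, −3.04 ± 0.22), as were Pdgfrb (−2.21 ± 0.21) and Pdgfra (−1.42 ± 0.23), with 1 of 23 higher and 4 lower in all. Ligand and receptor were thus both up in Cdh1-Tg, and in the line labelled Ovol3KO the ligand was down with the receptor at 0.95.

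Genes of later germ cells and other early germ cell genes were counted as well. Of 22 later genes tested, 15 were higher in PGCLC labelled Ovol3KO (median 1.65, against −0.115 over all genes), such as Rhox6 (3.87 ± 0.33) and Syce1 (2.57 ± 0.35), a synaptonemal complex gene. The largest called changes of this list from WT EpiLC to WT PGCLC were falls. Among them, Rhox5 went from 422 to 21.7 TPM, Hormad1 from 18.4 to 0.164 TPM and Sohlh2 from 15.9 to 0.268 TPM. Hormad1 had 4.9 TPM in PGCLC labelled Ovol3KO. The X-linked homeobox genes Rhox9, Rhox6 and Rhox5 were higher in Ovol2a/2b-Tg (3.57 ± 0.47, 3.74 ± 0.33 and 1.09 ± 0.28), in Ovol2a-Tg (1.65 ± 0.47, 1.58 ± 0.33 and 2.69 ± 0.28) and in the line labelled Ovol1KO (1.93 ± 0.47, 1.90 ± 0.33 and 1.79 ± 0.28), and Rhox5 also in TKO (1.21 ± 0.28). These lines differ in Dppa3, which was called lower in Ovol2a/2b-Tg and TKO and uncalled in Ovol2a-Tg. In that labelled Ovol2KO 4 were lower (median −0.23). Dmrt1 was lower in 5 lines, among them Cdh1-Tg (−2.35 ± 0.34), Ovol2b-Tg (−2.05 ± 0.34) and TKO (−1.90 ± 0.34). Of 17 other early genes, 8 were higher in the line labelled Ovol3KO (median 0.87), and 5, 4, 4 and 4 were lower in Ovol2KO, TKO, Ovol2b-Tg and Cdh1-Tg. Cxcr4, the receptor that guides migrating germ cells, was higher in TKO (3.09 ± 0.22), Ovol2b-Tg (2.5 ± 0.22), Cdh1-Tg (2.43 ± 0.22) and Ovol2KO (2.37 ± 0.22), and also in Ovol2a-Tg (1.71 ± 0.22), where Dppa3 was not called.

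Across the 27 group means of log2(TPM + 1), the genes most like Dppa3 were Mreg (Pearson r 0.972), Manba (0.966) and Sox15 (0.964), out of 11495 tested genes with a range of at least 1. Those most like Kit were Kank2 (0.966), Rasgrp1 (0.956) and Slc25a36 (0.955). For Dnd1 they were Npas4 (0.933), Dusp5 (0.912) and Igfbp3 (0.906), for Tdrd5 AI661453 (0.891), Cxcl16 (0.886) and Ripk4 (0.845), and for Nanos3 Fundc1 (0.874), Porcn (0.858) and Cdx1 (0.840). Among the members themselves, Dppa3 and Kit went together over the 27 groups (0.723), and so did Dnd1 with Tdrd5 (0.676) and Nanos3 (0.649), while Kit and Tdrd5 ran against each other (−0.530). Many other genes were more alike: Kit ranked 898 for Dppa3, and Dppa3 1131 for Kit. Tdrd5 and Nanos3 ranked 1387 and 1691 for Dnd1, which ranked 131 and 613 for them. Over the 9 PGCLC groups alone, Mreg, Manba and Sox15 stayed at 0.94 to 0.99 with Dppa3, while Kank2, Rasgrp1 and Slc25a36 were at 0.21 to 0.40 with Kit. Fundc1, Porcn and Cdx1 were at 0.38, 0.87 and −0.2 with Nanos3. Those named for Dnd1 were at 0.65 to 0.95, and those for Tdrd5 at 0.84 to 0.93. There, Dppa3 went with Nanos3 (0.86) and Tdrd5 (0.73), and with Kit it was at −0.30. The points share libraries and no test was made.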

How the data were processed

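Poly(A) RNA of 54 libraries in 27 groups was read as one table of TPM values that the authors deposited. Per the labels, libraries were made with a directional NEBNext kit; per the submitters' processing notes, HISAT2, featureCounts and edgeR were used with mm10. The sources used here give no versions, annotation or strand setting. Groups came from the sample titles, and 2 Ovol2b-Tg EpiLC columns could be assigned to the group but not to a library. TPM sum to the same total in each library and so show shares of mRNA. The members and gene lists were chosen with earlier results of these data known.

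The values were taken as log2(TPM + 1) and fitted in limma (version 3.58.1, R version 4.3.3), with trend and robust shrinkage. Genes had to reach 1 TPM in 2 or more libraries, which left 14416, and p-values were adjusted by Benjamini-Hochberg. Lines were compared within the 18 libraries of a stage (9 residual degrees of freedom), and stages, own changes and their differences in all 54 (27 residual degrees of freedom). Whole reads were recovered from the TPM for all 17973 genes above 0, within a tolerance of 0.0001, for depths, counting intervals and limma-voom. Named genes are the members, the genes in the line labels, the 3 genes most like each member, and up to 4 called genes of each list with the largest change per comparison. Alternatives were pseudocounts of 0.1 and 5, no filter, quantile and TMM scaling, 1 fit of all libraries, no trend, limma-voom, a replicate block, the averaged Ovol2b-Tg EpiLC pair and leaving out each library. The steps were tested on simulated data.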

Additional observations from a re-analysis of the deposited data

Results flagged for a closer look

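In 11 cases the change of a member from EpiLC to PGCLC differed between a line and WT by a direct test (limma interaction, BH adjusted p under 0.05 and at least 1 on the log2 scale). For Dppa3 the difference, line minus WT, was 2.54 in the line labelled Ovol3KO, −2.24 in TKO, −1.39 in Ovol2b-Tg, −1.35 in Ovol2a/2b-Tg and −2.45 in Cdh1-Tg. For Tdrd5 it was −1.49 in the line labelled Ovol2KO, −1.99 in that labelled Ovol3KO, −2.15 in TKO and −1.11 in Ovol2b-Tg. For Kit it was 1.14 in Ovol2b-Tg and 1.67 in Cdh1-Tg. The line labelled Ovol3KO is the one where Dppa3 and Tdrd5 differed from the WT change in opposite directions.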

How the results depend on the processing

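The counts of member calls were 12 of 15 between WT stages, 6 of 40 in ESC, 7 of 40 in EpiLC and 20 of 40 in PGCLC against WT, 8 of 40 among PGCLC lines, 20 of 40 for each line's own change and 11 of 40 for the difference from the WT change. No called value changed sign under any alternative run. The pseudocount moved the counts furthest: with 5 they were 2 in ESC, 2 in EpiLC, 5 among PGCLC lines and 8 for own changes, and with 0.1 they were 14 among PGCLC lines. Leaving out 1 library gave 11 to 13 between WT stages, 3 to 7 in ESC (3 without the first WT library), 5 to 8 in EpiLC, 18 to 21 in PGCLC, 7 to 10 among PGCLC lines, 18 to 22 for own changes and 8 to 11 for the differences. Over 255 member values, 31 calls were lost with a pseudocount of 5, and limma-voom lost 9 and added 9.

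The replicate number as a block gave 12, 6, 20 and 9 calls between WT stages, in ESC, in PGCLC and among PGCLC lines. With Ovol2b-Tg EpiLC left out, as its columns carry no number, it gave 7 calls in EpiLC, 18 for own changes and 8 for the differences. It turned 2 uncalled values into calls, both Dppa3 and given with them, and changed no other. Within a stage, same-numbered libraries of different lines did not deviate together in general (median r −0.01 to 0.01 over line pairs). Single line pairs ran from −0.21 to 0.2 in ESC. Pairing of a line's libraries across stages was not examined, so this does not settle whether the numbers pair samples. The number of called genes over all genes depended on the settings as well: with a pseudocount of 5 it was 832 in place of 1850 for PGCLC labelled Ovol3KO and 637 in place of 1421 for Cdh1-Tg, and limma-voom called 19 in place of 96 for that labelled Ovol1KO. Single libraries moved some counts behind the printed shares by more: 13 or 489 in place of that 96 without the first or second Ovol1KO PGCLC library, 9 or 417 in place of 83 for its difference from the WT change, 25 or 225 in place of 134 for Ovol2a-Tg over Ovol2b-Tg without either Ovol2a-Tg library, and 109 or 11 in place of 51 for Ovol2b-Tg over TKO without either Ovol2b-Tg library. Depth limits Nanos3 before PGCLC and Dppa3 in TKO and Cdh1-Tg PGCLC, which had 3 reads or fewer per library. It also limits Dppa3 in the second PGCLC libraries of Ovol2KO and Ovol2b-Tg, with 2 reads each. Nanos3 had 1 read in the second Ovol2KO PGCLC library and 3 in the first TKO one.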
